A study of Mus musculus with 36 samples.

Results

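The complement genes of mouse embryonic fibroblasts (MEFs) were followed across 5 genotypes of the glucocorticoid receptor (GR). The 8 genes were C1ra, C1s1, C4b, C3, Cfb, Masp1, Serping1 and Cd55, components and regulators of complement, out of 55487 genes in the count table. They were chosen with earlier results of these data known, so that counts of members called against all genes are descriptions. All 8 had a row in the table and 7 passed the expression filter, which kept 15489 genes. Cfb did not pass and was not tested. The primary MEFs were grown from embryos after removal of head and organs, treated for 5 h with vehicle or with 1 µM dexamethasone (Dex), a synthetic glucocorticoid, and sequenced from TruSeq libraries.

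The genotypes were GRwt/wt, GRD/D with a point mutation in the DNA-binding domain, GRL/L with one in the ligand-binding domain, GRD+L/D+L with both, and GRko/ko, a knockout of GR. Run 1 held GRwt/wt, GRD/D, GRD+L/D+L and GRko/ko, and run 2 held GRL/L with GRwt/wt of its own. Each of the 12 groups of genotype, treatment and run had 3 libraries, described by the submitters as primary cultures from different mice. The separate origin of the libraries within a group was not tested. The study describes its GRwt/wt and GRD/D mice as FVB/NJ, and the GRL and GRD+L lines came from edited zygotes that were backcrossed to FVB/NJ. FVB/NJ is also the labelled strain of GRko/ko, although the methods of the study place its parents on a 129 Sv background, so that strain and GR loss cannot be told apart there. The totals were 15280166 to 19102035 counts per library in run 1 and 21532686 to 28662608 in run 2. Levels are given as CPM, the count after scaling to library size, and genes were called by edgeR's quasi-likelihood test where the adjusted p-value did not exceed 0.05. The limit of the study, a log2 fold change of at least 1 in size, was applied as a second rule. Overlap between groups is given as a description, and the share of all genes without overlap was not counted.

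The labels were checked on Nr3c1, the gene of GR, which averaged 16.6 CPM with vehicle and 18.2 CPM with Dex in GRko/ko. In all the other groups its mean was 48.8 to 103 CPM. The fibroblast genes Col1a1, Col1a2 and Vim were abundant in every group, with Col1a1 means of 5928 to 11703 CPM. Pdgfra, Dcn and Lum, also on the fibroblast list, were below Col1a1 in vehicle-treated GRwt/wt and lower in run 1 than in run 2, as given below. The sum over 10 macrophage markers differed among the cultures, with vehicle means of 76.8 CPM in GRwt/wt run 1, 218 CPM in GRD/D, 13.6 CPM in GRD+L/D+L, 1232 CPM in GRko/ko, 125 CPM in GRwt/wt run 2 and 259 CPM in GRL/L. Among single vehicle libraries, the macrophage sum ran from 1208 to 1260 CPM in GRko/ko and from 209 to 225 CPM in GRD/D. It ran from 12.2 to 14.5 CPM in GRD+L/D+L and more widely, from 62.1 to 106 CPM, in GRwt/wt of run 1. In run 2 it was 118 to 132 CPM in GRwt/wt and 243 to 290 CPM in GRL/L. Whether libraries of a group shared a culture was not tested. The sum over 5 hepatocyte markers was at most 1.92 CPM in any vehicle library. The sex of the cultures also differed, since Xist averaged 248 CPM in vehicle-treated GRwt/wt of run 1 and 234 CPM in GRD/D but at most 1.62 CPM in the other vehicle groups, which expressed Ddx3y. In whole cultures, a change in the number of cells of one type and a change of RNA per cell cannot be told apart.

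Complement is a cascade of plasma and cell surface proteins that marks microbes and damaged cells. C1r and C1s, encoded in the mouse by C1ra and C1s1, are the proteases of the first classical component, and C1r activates C1s, which cleaves C4, encoded by C4b. MASP1 is a protease of the lectin pathway, and all routes meet at C3, which factor B (Cfb) helps to cleave in the alternative pathway. Serping1 encodes the C1 inhibitor, a secreted blocker of C1r, C1s and the MASP proteases, and Cd55 encodes decay-accelerating factor, a membrane protein that breaks up C3 convertases on the cell's own surface. On mm10, C1ra (chr6:124512405-124523443, plus strand) and C1s1 (chr6:124530345-124542359, minus strand) are neighbours, C3 (chr17:57203970-57228136), C4b (chr17:34728380-34743882) and Cfb (chr17:34856374-34862518) lie on the minus strand of chromosome 17, and Cd55 (chr1:130439027-130462744), Serping1 (chr2:84765387-84775444) and Masp1 (chr16:23449417-23520815) on the minus strands of their chromosomes. Liver makes most plasma complement, and fibroblasts are among the cells that make components locally. GR binds DNA as a ligand-activated transcription factor.

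Stretches of 250 bases before the start site are shown for the members with a promoter entry in RefSeq (GRCm38.p6), because 3 of them rose together between the runs and Cd55 fell with Dex. They lie at chr6:124512371-124512620 on the plus strand for C1ra and, on the minus strand, at chr6:124542360-124542609 for the first of the overlapping C1s1 starts, chr17:57228137-57228386 for C3 and chr1:130462745-130462994 for Cd55. Each is written 5′ to 3′ towards the gene, with motif matches in capitals.
C1ra: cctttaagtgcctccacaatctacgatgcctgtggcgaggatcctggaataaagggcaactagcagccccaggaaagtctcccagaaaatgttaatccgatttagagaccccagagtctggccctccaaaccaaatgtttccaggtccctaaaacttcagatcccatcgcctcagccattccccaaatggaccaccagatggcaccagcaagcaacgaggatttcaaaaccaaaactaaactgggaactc
C1s1: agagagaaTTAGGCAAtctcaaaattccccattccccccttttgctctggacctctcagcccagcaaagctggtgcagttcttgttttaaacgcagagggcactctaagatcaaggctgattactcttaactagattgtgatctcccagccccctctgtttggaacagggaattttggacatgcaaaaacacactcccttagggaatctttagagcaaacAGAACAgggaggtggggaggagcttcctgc
C3: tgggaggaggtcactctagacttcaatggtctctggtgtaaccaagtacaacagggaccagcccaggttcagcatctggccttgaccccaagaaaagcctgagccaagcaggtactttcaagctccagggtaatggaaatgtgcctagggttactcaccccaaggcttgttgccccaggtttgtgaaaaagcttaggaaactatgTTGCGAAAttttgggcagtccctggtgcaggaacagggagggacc
Cd55: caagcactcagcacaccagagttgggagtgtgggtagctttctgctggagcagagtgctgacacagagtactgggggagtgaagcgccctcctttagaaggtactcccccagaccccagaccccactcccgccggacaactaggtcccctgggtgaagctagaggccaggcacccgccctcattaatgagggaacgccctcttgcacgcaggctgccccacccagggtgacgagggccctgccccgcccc

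The capitals mark a match to the C/EBP motif TTGCNNAA starting at base -242 of C1s1 and at -45 of C3, and the GR hexamer AGAACA at -30 of C1s1, counted from the start site. Both strands of 300-base windows reaching 50 bases past the start were searched. C1ra had matches only downstream of its RefSeq start, a C/EBP match at base 16 and a match to the gamma-activated site TTCNNNGAA at base 32, and Cd55 had none. The full GR element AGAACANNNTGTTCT was in none of these windows and in 0.00913% of all 32851 windows. Its core ACANNNTGT was in 6.85%, the hexamer in 19%, the NF-kB motif GGGNNTTTCC in 1.63%, the interferon element core GAAANNGAAA in 3.44%, the gamma-activated site in 8.3% and the C/EBP motif in 10.8%. The hexamer forms part of the full element. These are matches of letters, and no binding was measured. In GENCODE M21, C1ra starts farther upstream than in RefSeq, at chr6:124512405, so that most of its printed stretch lies inside that gene model.

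The levels of all 7 tested complement genes differed between the 2 runs. In vehicle-treated GRwt/wt, the proteases C1s1 and C1ra, the components C3 and C4b and the inhibitor Serping1 were all higher in run 2 than in run 1, whereas Cd55 and Masp1 were lower. C1s1 was 3.96, 3.56 and 3.96 CPM in run 1 and 88.2, 92.7 and 108 CPM in run 2, a 25.1-fold difference (log2 4.65 ± 0.14, SE, n = 3 per run, adjusted p = 1.73e-25). C1ra was 4.67, 4.32 and 4.61 CPM in run 1 and 40.1, 37.5 and 46.6 CPM in run 2 (log2 3.19 ± 0.10, adjusted p = 7.21e-26). Neither gene had a library of one run within the range of the other.

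C3 was 0.649, 0.548 and 1.23 CPM in run 1 and 10.5, 10.9 and 17.0 CPM in run 2, a 15.6-fold difference (log2 3.96 ± 0.28, adjusted p = 5.98e-15). C4b was at 2 to 4 counts per vehicle library in run 1, 0.130 to 0.260 CPM, and at 4.37 to 5.27 CPM in run 2 (log2 4.75 ± 0.59, adjusted p = 6.33e-09). Serping1 rose less, from 3.63 to 5.97 CPM in run 1 to 19.4 to 23.4 CPM in run 2 (log2 2.09 ± 0.15, adjusted p = 3.25e-15). For these 3 genes too, the lowest library of run 2 lay above the highest of run 1.

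Cd55 was 52.6 to 57.9 CPM in vehicle-treated GRwt/wt of run 1 and 20.8 to 23.5 CPM in run 2 (log2 -1.30 ± 0.07, adjusted p = 2.19e-18). Masp1 was 97.4 to 105 CPM in run 1 and 39.5 to 43.0 CPM in run 2 (log2 -1.31 ± 0.07, adjusted p = 2.05e-18). In all, 7 of the 7 tested members were called, 5 higher and 2 lower in run 2, against 72.4% of all genes. All 7 also passed the fold limit, against 22.8% of all genes. The median log2 difference was 3.19 over the 7 members and 0.09 over all genes tested. C4b, at 2 to 4 counts per GRwt/wt vehicle library of run 1, passed the expression filter only through groups where it was higher. Its place in these counts is therefore partly set by the filter, which left out Cfb, low in every group.

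Other markers moved between the runs in the same GRwt/wt vehicle cultures. The fibroblast genes Pdgfra, Dcn and Lum averaged 45.6, 81.9 and 7.91 CPM in run 1 and 331, 605 and 210 CPM in run 2. Over the 10 fibroblast markers, 5 were called higher and 4 lower in run 2, and their sum averaged 44695 CPM in run 1 and 35078 CPM in run 2. Of the 10 macrophage markers, 9 were higher in run 2 and none lower, of 3 adipocyte markers tested 3 were higher, and of 4 cartilage markers tested 4 were higher. Run, sex of the cultures and these markers differ together between the 2 sets of GRwt/wt, and their part in the complement levels cannot be told apart.

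**Figure D1:**
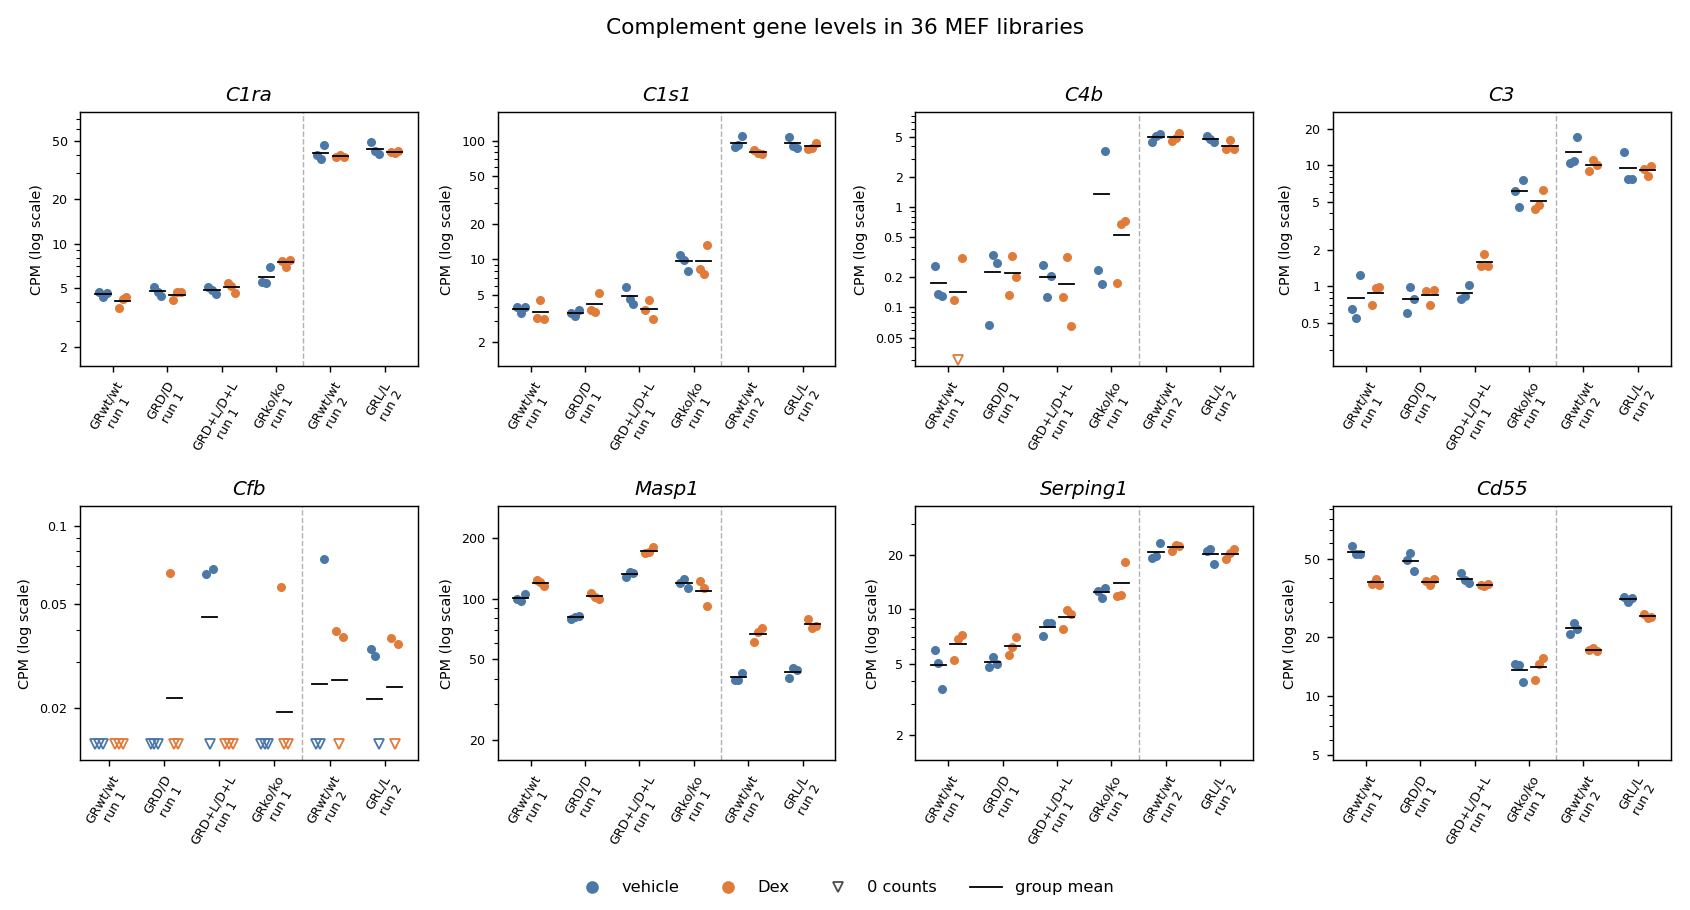
Level of each of the 8 complement genes in every library, in CPM on a log axis, by genotype and run with vehicle in blue and Dex in orange. Bars are group means over 3 libraries, open triangles are libraries with 0 counts, and the dashed line parts run 1 from run 2, where C1s1 stood at 77.0 to 108 CPM against 3.13 to 13.2 CPM in run 1.

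Per kilobase of exon, the order of the genes differed between the runs. In GRwt/wt with vehicle of run 1, Cd55 and Masp1 were the most abundant members at a mean of 11.2 and 10.3 CPM per kilobase, followed by Serping1 at 2.1, C1ra at 1.52, C1s1 at 1.22, C3 at 0.157 and C4b at 0.0308. In run 2, C1s1 led at 30.8 CPM per kilobase, followed by C1ra at 13.9, Serping1 at 8.97, Cd55 at 4.56, Masp1 at 4.14, C3 at 2.49 and C4b at 0.859. Exon lengths were taken from GENCODE M21 on mm10 and run from 2325 bases for Serping1 to 9833 bases for Masp1.

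Cfb was at 0 counts in 25 of the 36 libraries and at 2 counts in its highest, 12 counts in all. A count of 0 over the 3 vehicle libraries of GRwt/wt in run 1 allows a level of up to 0.0660 CPM for counting error only. This value is uncertain, because 79.5% of the Cfb exons lie under exons of the read-through gene Gm20547 on the same strand, which had 0 counts in every vehicle group, and reads that fall on both genes may not have been assigned to either. C1ra, C1s1, C4b and Cd55 share 50.8%, 35.1%, 34.6% and 9.12% of their stretches of 50 bases with other genes, chiefly C1rb, C1s2, C4a and Cd55b. Only uniquely mapped reads were counted, so part of the signal of these 4 genes may be missing. C3 and Serping1 share none.

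Dex lowered Cd55 in the MEFs of both GRwt/wt runs, of GRD/D and of GRL/L. In GRwt/wt of run 1, Cd55 was 57.9, 52.8 and 52.6 CPM with vehicle and 37.2, 39.6 and 37.0 CPM with Dex, and the groups did not overlap (log2 -0.52 ± 0.07, adjusted p = 3.68e-07). In run 2 it was 20.8, 23.5 and 22.0 CPM with vehicle and 17.2, 17.5 and 17.0 CPM with Dex, again without overlap (log2 -0.36 ± 0.07, adjusted p = 2.21e-04). In GRL/L, Cd55 was 31.8, 30.1 and 31.4 CPM with vehicle and 26.2, 25.0 and 25.1 CPM with Dex (log2 -0.29 ± 0.07, adjusted p = 0.00161).

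GRD/D had 49.6, 53.8 and 43.6 CPM of Cd55 with vehicle and 38.5, 36.8 and 39.4 CPM with Dex (log2 -0.36 ± 0.07, adjusted p = 4.11e-04). In each of GRL/L and GRD/D, all Dex libraries lay below all vehicle libraries. In GRD+L/D+L, Cd55 was 42.1, 39.1 and 37.7 CPM with vehicle and 36.9, 36.4 and 37.3 CPM with Dex, which did not pass the test (log2 -0.10 ± 0.07, adjusted p = 0.6). The Dex libraries of GRwt/wt of run 1, GRD/D and GRD+L/D+L overlapped one another within 36.4 to 39.6 CPM. In GRko/ko, Cd55 was 11.8 to 14.5 CPM with vehicle and 12.0 to 15.6 CPM with Dex (log2 0.05 ± 0.09, adjusted p = 0.987).

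Masp1 rose with Dex in every genotype except GRko/ko. It was 100.2, 97.4 and 105 CPM with vehicle and 124, 121 and 115 CPM with Dex in GRwt/wt of run 1 (log2 0.25 ± 0.07, adjusted p = 0.00962). This call was narrow: the adjusted p-value was 0.0524 without Dex replicate 1 and 0.054 without vehicle replicate 2. In GRwt/wt of run 2, Masp1 was 39.5, 39.6 and 43.0 CPM with vehicle and 60.9, 68.5 and 71.5 CPM with Dex, a 1.65-fold rise (log2 0.72 ± 0.07, adjusted p = 1.22e-10). GRL/L, of the same run, had 40.5, 45.5 and 44.5 CPM with vehicle and 79.5, 71.5 and 72.9 CPM with Dex, a 1.71-fold rise (log2 0.78 ± 0.07, adjusted p = 2.25e-11).

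GRD/D had 79.2, 81.4 and 81.9 CPM of Masp1 with vehicle and 107, 102 and 99.5 CPM with Dex (log2 0.35 ± 0.07, adjusted p = 5.24e-04). GRD+L/D+L had 128, 136 and 135 CPM with vehicle and 169, 170.2 and 179.9 CPM with Dex (log2 0.38 ± 0.07, adjusted p = 1.14e-04). In these 5 comparisons the lowest Dex library lay above the highest vehicle library. In GRko/ko the vehicle libraries were at 119, 125 and 114 CPM and the Dex libraries at 122, 114 and 91.9 CPM, and the groups overlapped (log2 -0.13 ± 0.07, adjusted p = 0.912).

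C1s1 was the only other member called with Dex. In GRwt/wt of run 2 it was 88.2, 92.7 and 108 CPM with vehicle and 83.5, 78.2 and 77.0 CPM with Dex (log2 -0.28 ± 0.09, adjusted p = 0.0181), and the groups did not overlap. The call was lost with DESeq2 (adjusted p = 0.0724), without vehicle replicate 6 (adjusted p = 0.164) and without either of Dex replicates 5 and 6 (adjusted p = 0.0518 and 0.0564). In the other 5 comparisons the log2 change of C1s1 lay between -0.36 and 0.24 with no call, and in GRwt/wt of run 1 it was -0.09 (adjusted p = 0.877). The run term fits a single Dex change to GRwt/wt of both runs together, and in that edgeR fit C1s1 was called (log2 -0.25, adjusted p = 0.027).

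C1ra, Serping1, C3 and C4b did not pass the test with Dex in any genotype when all libraries were used with the expression filter. For C1ra in run 2 the 95% interval of the log2 change was narrow, -0.21 to 0.06 in GRwt/wt and -0.20 to 0.06 in GRL/L. For C3 it was -0.68 to -0.03 in GRwt/wt of run 2, where vehicle libraries were at 10.5, 10.9 and 17.0 CPM and Dex libraries at 8.95, 10.9 and 10.1 CPM (adjusted p = 0.09). C3 passed without vehicle replicate 4 (log2 -0.48, adjusted p = 0.0332) or 5 (log2 -0.46, adjusted p = 0.0484), and without the filter (log2 -0.36, adjusted p = 0.00494). Each of these fits kept vehicle replicate 6, the highest library at 17.0 CPM. In GRD+L/D+L, C3 was 0.788, 0.831 and 1.02 CPM with vehicle and 1.46, 1.85 and 1.49 CPM with Dex without overlap, but at 12 to 29 counts per library the change did not pass (log2 0.86 ± 0.43, adjusted p = 0.358). C4b in run 1 had 0 to 6 counts per library outside GRko/ko, and its intervals reached from -2.97 to 2.41 in GRwt/wt, so that changes within these limits were not detectable at this depth. Serping1 in GRwt/wt of run 1 was 5.97, 5.07 and 3.63 CPM with vehicle and 5.26, 6.87 and 7.18 CPM with Dex (log2 0.39 ± 0.18, adjusted p = 0.169).

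Counted over the 7 tested members, 2 were called with Dex in GRwt/wt of run 1 (1 higher, 1 lower) against 13.9% of all genes, and 3 in run 2 (1 higher, 2 lower) against 31.6%. GRL/L had 2 called against 19.1% of all genes, GRD/D 2 against 11.9% (7.35% without GRD/D Dex replicate 2) and GRD+L/D+L 1 against 5%. In GRko/ko edgeR called none of the 7, as it called 0% of all genes. There 2 members, C1ra and C4b, had an unadjusted p under 0.05, as did 859 of all 15489 genes tested, and DESeq2 called no member. No member passed the fold limit in any Dex comparison, while 2.01% of all genes did in GRwt/wt of run 1, 4.49% in run 2, 2.56% in GRL/L, 0.981% in GRD/D, 0.4% in GRD+L/D+L and 0% in GRko/ko. The median log2 change of the 7 members was -0.09 in GRwt/wt of run 1 and -0.07 in run 2, where the medians over all genes tested were -0.0018 and -0.011. The sum of the macrophage markers averaged 76.8 CPM with vehicle and 77.8 CPM with Dex in GRwt/wt of run 1 and 125 and 128 CPM in run 2. In GRL/L it averaged 259 CPM with vehicle and 230 CPM with Dex, and 6 of the 10 markers were called lower and 1 higher. The sum of the adipocyte markers averaged 4.09 CPM with vehicle and 14.9 CPM with Dex in GRwt/wt of run 1 and 30.2 and 73.2 CPM in run 2. Of the 3 adipocyte markers tested, 1 was called higher and 0 lower in run 1, but 1 higher and 2 lower in run 2. The higher sum in run 2 is therefore not a rise of most of these markers. The part of these cells in the Dex changes was not tested.

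**Figure D2:**
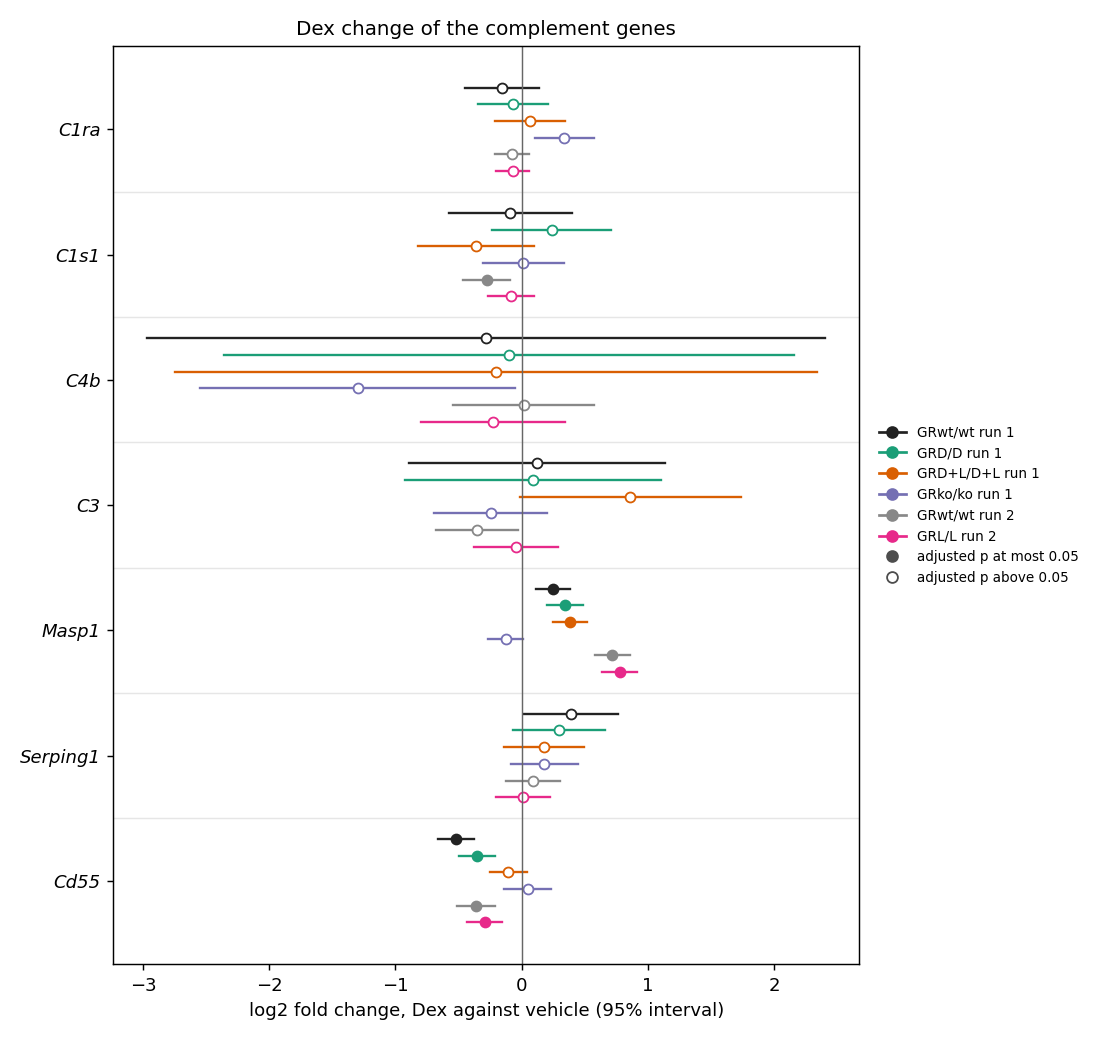
Log2 fold change of Dex against vehicle for the 7 tested members, with lines for the 95% interval, colour for genotype and run, and filled points where the adjusted p-value was at most 0.05. Masp1 lies right of 0 in each group but GRko/ko, Cd55 lies left of 0 in 4 groups with a call, and the intervals of C4b in run 1 span several units.

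Whether the Dex change itself differed between genotypes was tested as an interaction within the run. For Cd55, the change in GRD+L/D+L differed from that in GRwt/wt by 0.42 ± 0.10 on the log2 scale (adjusted p = 0.00956), and that in GRko/ko by 0.57 ± 0.12 (adjusted p = 6.71e-04). For Masp1, the change in GRko/ko differed by -0.37 ± 0.10 (adjusted p = 0.00812). The vehicle libraries enter both this test and the comparison of vehicle levels, and Cd55 was also lower with vehicle in GRD+L/D+L and GRko/ko than in GRwt/wt. By Xist and Ddx3y, GRD+L/D+L and GRko/ko also differed in sex from GRwt/wt of run 1, which cannot be told apart from genotype.

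GRD/D did not pass against GRwt/wt for any member. The 95% interval of the difference was -0.04 to 0.37 for Cd55 and -0.10 to 0.29 for Masp1. GRL/L did not pass against GRwt/wt of run 2 either, with intervals of -0.14 to 0.27 for Cd55 and -0.14 to 0.26 for Masp1. Between GRD+L/D+L and GRD/D the difference for Cd55 was 0.25 (interval 0.05 to 0.46, adjusted p = 0.367), so that the presence of a call in GRD/D and its absence in GRD+L/D+L was not a difference past the threshold.

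Of the 7 members, edgeR called 0 for GRL/L against GRwt/wt, where 1.85% of all genes were called, and 0 for GRD/D, where 3.29% were. It called 1 for GRD+L/D+L against 3.23% of all genes, 2 for GRko/ko against 8.48%, and 0 for GRD+L/D+L minus GRD/D against 0.0775%. In the comparisons with 0 calls, the members with an unadjusted p under 0.05 numbered 0 for GRL/L, 0 for GRD/D and 1 for GRD+L/D+L minus GRD/D, and DESeq2 also called 0 in each. Of all 15489 genes tested, 1890, 1819 and 1600 had an unadjusted p under 0.05 there, in the same order. Between the runs, the Dex change of Masp1 in GRwt/wt was larger in run 2 than in run 1 by 0.47 ± 0.10 (adjusted p = 0.00107), the 1 call among 7 members against 7.09% of all genes.

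Among vehicle-treated MEFs of run 1, GRko/ko differed from GRwt/wt by the test in all 7 tested members, of which C4b and C1ra lost the call without GRko/ko replicate 3. The components and the C1 inhibitor were higher and Cd55 was lower. C3 was 6.12, 4.48 and 7.59 CPM in GRko/ko against 0.649, 0.548 and 1.23 CPM in GRwt/wt, 7.35-fold higher (log2 2.88 ± 0.33, adjusted p = 3.03e-09). Serping1 was 12.6, 11.6 and 13.1 CPM against 5.97, 5.07 and 3.63 CPM (log2 1.34 ± 0.16, adjusted p = 8.89e-09). C1s1 was 10.9, 9.86 and 8.03 CPM against 3.96, 3.56 and 3.96 CPM (log2 1.33 ± 0.20, adjusted p = 4.87e-07). For all 3 genes the groups did not overlap.

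Cd55 was 14.5, 14.3 and 11.8 CPM in GRko/ko against 57.9, 52.8 and 52.6 CPM in GRwt/wt, about 0.25 of the GRwt/wt level (log2 -2.0 ± 0.08, adjusted p = 5.82e-22). Masp1 (log2 0.24 ± 0.07, adjusted p = 0.00381) and C1ra (log2 0.38 ± 0.13, adjusted p = 0.0165) were higher by small amounts. The C1ra call was lost without GRko/ko replicate 3 (adjusted p = 0.148) or GRwt/wt replicate 2 (adjusted p = 0.0581). C4b was 0.235, 0.170 and 3.60 CPM in GRko/ko against 0.260, 0.137 and 0.130 CPM, and its call (log2 2.82 ± 0.81, adjusted p = 0.00405) rested on GRko/ko replicate 3, without which the log2 difference was 0.19 (adjusted p = 0.877).

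All 7 tested members were called in this comparison, 6 higher and 1 lower, against 45.7% of all genes, and 5 also passed the fold limit against 14.2%. The median log2 difference was 1.33 over the members and 0.01 over all genes tested. Here too, C4b passed the expression filter only through groups where it was higher than in GRwt/wt of run 1, and its place in these counts is partly set by the filter. All 10 macrophage markers were higher in GRko/ko, and all 4 tested cartilage markers, whose sum ranged from 179 to 535 CPM in GRko/ko against 18.8 to 21.0 CPM in GRwt/wt. The part of these cells in the complement levels was not tested. By Xist and Ddx3y, the GRko/ko cultures also differed in sex from GRwt/wt of run 1, and sex and genotype cannot be told apart here.

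GRD+L/D+L differed from GRwt/wt in 3 members with vehicle. Serping1 was 7.15, 8.38 and 8.44 CPM against 5.97, 5.07 and 3.63 CPM (log2 0.71 ± 0.18, adjusted p = 0.00213). Masp1 was 128, 136 and 135 CPM against 100.2, 97.4 and 105 CPM (log2 0.40 ± 0.07, adjusted p = 1.72e-05), and Cd55 was 42.1, 39.1 and 37.7 CPM against 57.9, 52.8 and 52.6 CPM (log2 -0.46 ± 0.07, adjusted p = 2.82e-06). None of the 3 overlapped between the groups. These were 2 calls up and 1 down of 7, against 29.9% of all genes. All 10 macrophage markers were lower in GRD+L/D+L than in GRwt/wt, as were 6 of the 10 fibroblast markers, with none of these higher. The part of these markers in the complement levels was not tested. By Xist and Ddx3y, the GRD+L/D+L cultures also differed in sex from GRwt/wt of run 1, and sex and genotype cannot be told apart here.

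In GRD/D, Masp1 was the 1 member called of 7, against 9.55% of all genes, at 79.2, 81.4 and 81.9 CPM against 100.2, 97.4 and 105 CPM (log2 -0.32 ± 0.07, adjusted p = 0.00142). With the run term this call was lost (log2 -0.21, adjusted p = 0.101), and without GRwt/wt vehicle replicate 3 the share of all genes was 6.02%. In GRL/L, Cd55 was the 1 member called, against 11.3% of all genes, at 31.8, 30.1 and 31.4 CPM against 20.8, 23.5 and 22.0 CPM in GRwt/wt of run 2 (log2 0.49 ± 0.07, adjusted p = 2.95e-06). C3 in GRL/L was at 12.8, 7.72 and 7.69 CPM against 10.5, 10.9 and 17.0 CPM (log2 -0.45 ± 0.16, adjusted p = 0.0626), and it passed without GRL/L replicate 1 (log2 -0.73, adjusted p = 0.00206). That fit kept GRwt/wt vehicle replicate 6, the highest library at 17.0 CPM. All 10 macrophage markers were higher in both mutants than in GRwt/wt of their run. The cultures of GRD/D and GRD+L/D+L differed from each other in 3 of 7 members, against 37.5% of all genes: Masp1 (log2 0.72 ± 0.07, adjusted p = 8.87e-11) and Serping1 (log2 0.65 ± 0.17, adjusted p = 0.00269) were higher in GRD+L/D+L and Cd55 was lower (log2 -0.30 ± 0.07, adjusted p = 6.41e-04). C1s1 did not pass (log2 0.47, adjusted p = 0.0989), but it did without the filter (adjusted p = 0.0128), without the GRko/ko libraries (adjusted p = 0.0441), with DESeq2 (adjusted p = 0.026) and with only the libraries compared (adjusted p = 0.0408). Of the 10 fibroblast markers, 7 were lower in GRD+L/D+L than in GRD/D, and their part was not tested. These 2 genotypes also differed in sex by Xist and Ddx3y, which cannot be told apart from genotype.

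**Figure D3:**
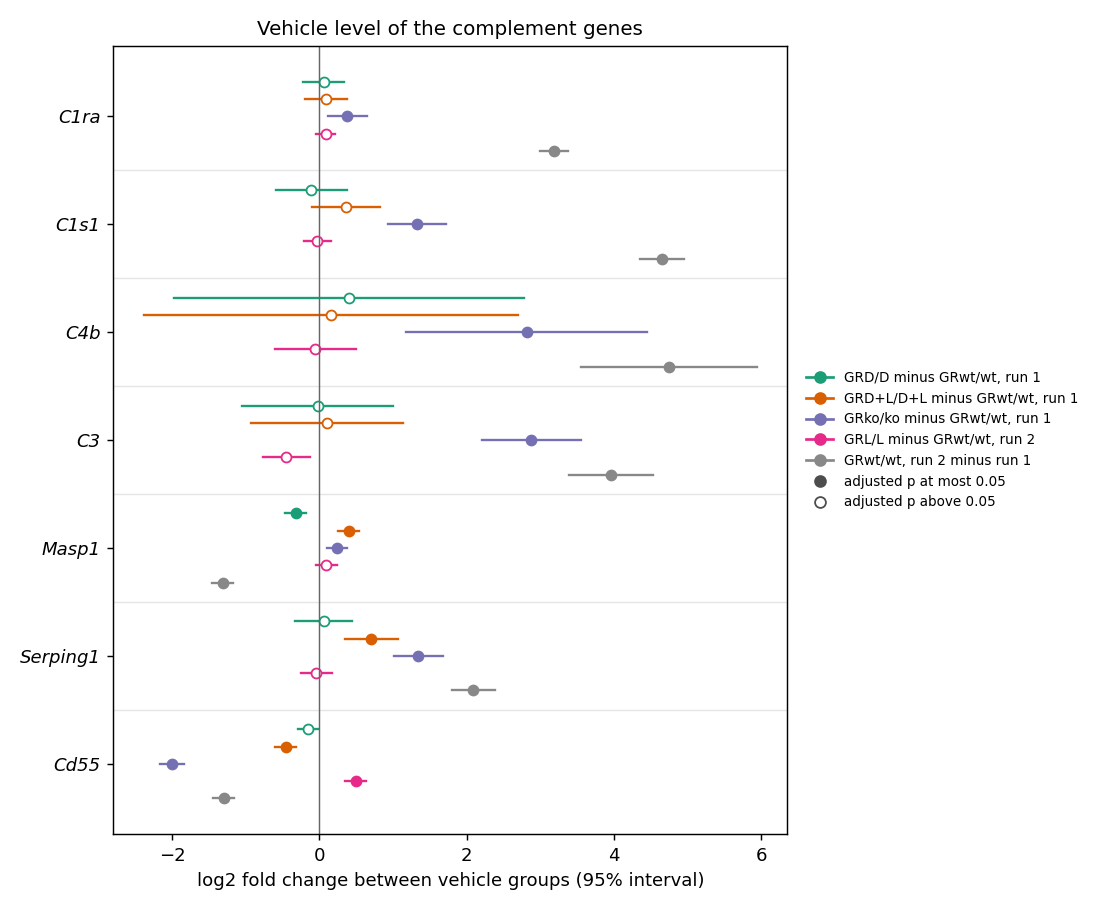
Log2 fold change between vehicle groups for the 7 tested members, with lines for the 95% interval and filled points where the adjusted p-value was at most 0.05. The grey points, GRwt/wt of run 2 against run 1, lie farther from 0 than any mutant against its own GRwt/wt for each member except Cd55, which was lowest in GRko/ko.

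Ordered by mean level over the 12 groups, C1s1, C1ra, C3, C4b and Serping1 had the 4 groups of run 2 on top, then the 2 groups of GRko/ko. Of the 11 steps between neighbouring groups, 8 overlapped for C1s1 and C3, 9 for C1ra and Serping1 and 10 for C4b, so that the order within run 2 and among the other genotypes of run 1 was largely not resolved. Cd55 ran from GRwt/wt vehicle of run 1 at 54.4 ± 3.04 CPM (SD, n = 3) to GRko/ko vehicle at 13.5 ± 1.55 CPM, with 5 of 11 steps overlapping. Masp1 ran from GRD+L/D+L Dex at 173 ± 5.89 CPM to GRwt/wt vehicle of run 2 at 40.7 ± 2.00 CPM, with 7 of 11 overlapping.

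Over the 36 libraries, after the GRwt/wt vehicle mean of the run was subtracted from each log2 CPM, the 5 genes C1s1, C1ra, C3, C4b and Serping1 had positive Pearson correlations with each other, from 0.49 for C4b with C1s1 to 0.89 for C3 with Serping1. All 5 were negative with Cd55, from -0.54 to -0.92. These values rested largely on GRko/ko. Without its 6 libraries, over 30 libraries, the correlation was 0.67 for C3 with Serping1, 0.48 for C1s1 with C1ra, 0.07 for C4b with C1s1, -0.58 for C3 with Cd55 and 0.16 for C1ra with Cd55. Masp1 was near 0 with the others, between -0.21 and 0.05 over 36 libraries. The libraries share genotype and run, and the values are descriptions.

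The genes whose pattern over these 36 libraries was most like each member were Arg1 (r = 0.94) for C3, Rbp4 (0.74) for C4b, Col8a2 for both C1s1 (0.93) and C1ra (0.87), Igfbp3 (0.94) for Serping1, Hoxc9 (0.96) for Cd55 and Nox4 (0.91) for Masp1. The next closest were Gbp2b and Cxcl12 for C3, Col9a1 and Steap4 for C4b, H19 and Arg1 for C1s1, Col6a6 and Palmd for C1ra, Cp for Serping1, Olfm1 and Gpr137b-ps for Cd55, and Aldh1a7 and Adra1b for Masp1. These patterns include the GRko/ko libraries and were not recomputed without them.

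The rest of the pathway was read from a list of 51 complement genes, of which 43 are not members and 29 of these passed the filter. In GRwt/wt of run 1, 3 of 29 were called with Dex, against 13.9% of all genes: C4bp, a soluble inhibitor of the classical convertase, was higher (log2 2.93, adjusted p = 2.41e-04, from 0.111 to 0.879 CPM), and the receptors C3ar1 (log2 -0.50, adjusted p = 0.0278) and Itgax (log2 -1.75, adjusted p = 0.00341) were lower. In GRwt/wt of run 2, 5 of 29 were called, 4 higher and 1 lower, against 31.6% of all genes. Among them, the C1q subunits C1qa (log2 0.61, adjusted p = 0.00479) and C1qb (log2 0.86, adjusted p = 3.08e-05) and Cd59a, a membrane inhibitor of the lytic complex (log2 0.45, adjusted p = 5.13e-04), were higher, and C1s2 was lower (log2 -0.34, adjusted p = 0.00577). In GRL/L, 2 of 29 were called against 19.1% of all genes, C1qb (log2 0.37, adjusted p = 0.0398) and Cd59a (log2 0.33, adjusted p = 0.0179), while 1 of 29 was called with DESeq2, without the GRko/ko libraries, with the run term or with the replicate block, and 0 without GRL/L vehicle or Dex replicate 3. With all libraries, edgeR called 0 of 29 in GRD/D, GRD+L/D+L and GRko/ko, where 6, 1 and 4 genes had an unadjusted p under 0.05 and DESeq2 also called 0. Of all 15489 genes tested, 3909, 2242 and 859 had an unadjusted p under 0.05 there, in the same order.

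With vehicle, the genes of myeloid cells followed the macrophage markers. C1qa averaged 18.6 CPM in GRwt/wt of run 1, 55.0 CPM in GRD/D, 1.21 CPM in GRD+L/D+L and 195 CPM in GRko/ko, and in run 2 21.2 CPM in GRwt/wt and 52.5 CPM in GRL/L. C1qb, C1qc, C3ar1, C5ar1, Itgam and Cfp were likewise called higher in GRD/D, GRL/L and GRko/ko and lower in GRD+L/D+L. Clu, which encodes clusterin, a soluble regulator of the lytic complex, had another pattern: it was 1.20 CPM in GRwt/wt of run 1, 6.94 CPM in GRD+L/D+L and 21.5 CPM in GRko/ko, and it was called higher in GRD+L/D+L (log2 2.51) and GRko/ko (log2 4.13), as Serping1 was. C4bp was also called higher in both (log2 2.13 and 1.86).

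Of the 29 genes, 11 were called in GRD/D against GRwt/wt (9 higher, 2 lower), 14 in GRD+L/D+L (4 higher, 10 lower), 22 in GRko/ko (15 higher, 7 lower), 9 in GRL/L (8 higher, 1 lower), 15 between GRD+L/D+L and GRD/D (3 higher, 12 lower) and 21 between the runs of GRwt/wt (14 higher, 7 lower in run 2). In the same order, the shares of all genes called were 9.55%, 29.9%, 45.7%, 11.3%, 37.5% and 72.4%. Cfd, without counts in run 1, passed the expression filter only through run 2, so that its call between the runs is partly set by the filter. The membrane inhibitors Cd59a (log2 -2.71, adjusted p = 7.5e-20) and Cd59b (log2 -2.10, adjusted p = 5.34e-06) were lower in GRko/ko, as Cd55 was. Both CD59 genes were also lower in run 2 than in run 1 (log2 -1.17 and -1.57).

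Further genes of the list were called in 2 or more vehicle comparisons. Fcna and C5ar2 were higher in GRD/D and GRko/ko and lower in GRD+L/D+L than in GRD/D. Itgax was lower in GRD+L/D+L and higher in GRko/ko and GRL/L. Colec10 was lower in GRD/D, GRD+L/D+L and GRko/ko, Cr2 in GRD/D and GRko/ko, Cpn1 in GRko/ko and in GRD+L/D+L against GRD/D, and Cr1l in GRD+L/D+L against both GRwt/wt and GRD/D. Susd4 was higher in GRko/ko and in run 2. The paralogs C1rb and C1s2 were lower in GRko/ko and higher in run 2, and Cfd was lower in GRL/L and higher in run 2.

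**Figure D4:**
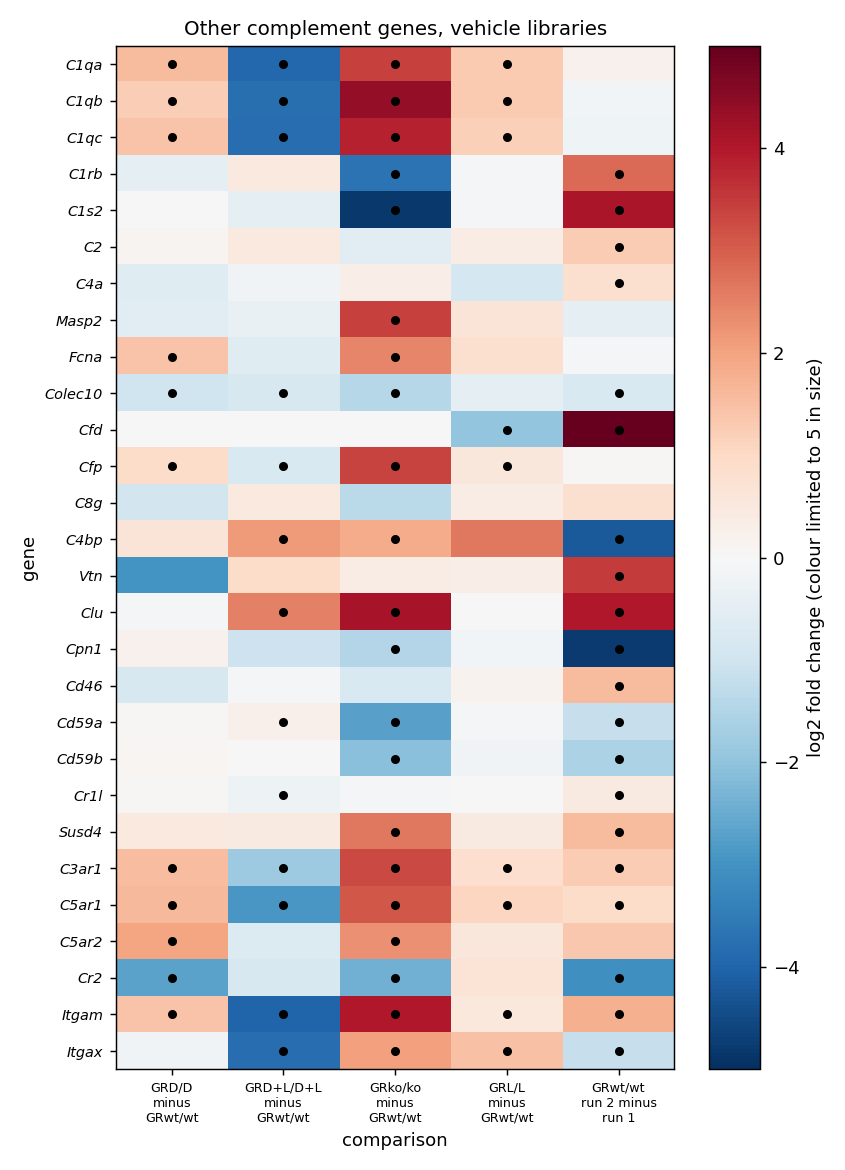
Log2 fold change between vehicle groups for 28 tested complement genes that are not members, with red for higher, blue for lower, colour limited to 5 in size, and a dot where the adjusted p-value was at most 0.05. GRko/ko has 21 dots, and C1qa, C1qb, C1qc, C3ar1, C5ar1 and Itgam turn from red in GRD/D to blue in GRD+L/D+L.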

How the data were processed

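The deposited table holds raw read counts per gene for 36 libraries. Per the labels and methods, the authors made these counts from TruSeq libraries by mapping to mm10 with HISAT2 2.1.0, keeping uniquely mapped reads and counting with featureCounts 2.0.0. The annotation and strand setting are not given in the sources used here. Symbols matched 55141 of 55487 identifiers.

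Counts were tested with edgeR 4.0.16 (limma 3.58.1, R 4.3.3), TMM scaling, the default expression filter and a quasi-likelihood fit of 12 groups over all 36 libraries, with Benjamini-Hochberg adjustment over 15489 genes. The biological coefficient of variation was 0.0513. The study fitted DESeq2 with a run term, pooling GRwt/wt of both runs. Contrasts within each run were used here because the GRwt/wt runs differ. Standard errors come from the F statistic and are approximate, and p-values measure the spread between these libraries. If libraries of a group shared a culture, which was not tested, the p-values between genotypes would not cover the spread between mice. Totals of 15280166 to 28662608 counts limit C4b, C3 and Cfb most.

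Counts of all 36 pairs of libraries within groups differed by more than sampling noise (chi-square 1.38 to 6.03 times it). Alternatives were DESeq2 1.42.0, its size factors, other filters, the run term, fewer libraries and a replicate block. The procedure was tested on simulated data. The members and gene lists were chosen with earlier results of these data known. All members are named, with listed genes called with Dex in GRwt/wt or in 2 or more vehicle comparisons, and the 3 closest patterns per member. A listed gene that met this rule is not reported here. Gene models are from GENCODE M21, and figures were drawn with matplotlib.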

Additional observations from a re-analysis of the deposited data

Results flagged for a closer look

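The 4 differences of the Dex change between groups listed here passed their test, each on 3 libraries per group. For Cd55, GRD+L/D+L differed from GRwt/wt of run 1 by 0.42 on the log2 scale (edgeR, adjusted p = 0.00956), and GRko/ko differed by 0.57 (adjusted p = 6.71e-04). For Masp1, GRko/ko differed from GRwt/wt of run 1 by -0.37 (adjusted p = 0.00812). The same genotype also differed between runs, since the Dex change of Masp1 in GRwt/wt was larger in run 2 by 0.47 (adjusted p = 0.00107), with vehicle levels of 101 CPM in run 1 and 40.7 CPM in run 2. The adjusted p-value of these 4 differences stayed at or under 0.0467 whichever library was left out and at or under 0.0341 under the other alternatives. Run, sex of the cultures and marker levels differ together between the GRwt/wt sets and cannot be told apart there. GRD+L/D+L and GRko/ko also differ in sex from GRwt/wt of run 1, which cannot be told apart from genotype.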

How the results depend on the processing

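The counts of called members were recomputed under each alternative. With the fold limit, the counts for Dex in GRwt/wt of run 1 and run 2, GRL/L, GRD/D and GRD+L/D+L and for vehicle in GRL/L, GRD/D and GRD+L/D+L against GRwt/wt and in GRD+L/D+L against GRD/D all became 0, as did the 1, 2 and 1 called differences of the Dex change for GRD+L/D+L, GRko/ko and run 2 minus run 1. Without the expression filter 1 member (C4b) was called with Dex in GRko/ko, C3 was also called in GRwt/wt of run 2, and 2 with vehicle in GRL/L, as also without the GRko/ko libraries. With the run term, which fits GRwt/wt of both runs together, 0 members were called with vehicle in GRD/D. Masp1 then reversed to -0.13 and -0.10 in the differences of GRD/D and GRD+L/D+L from that pooled GRwt/wt. With each library left out in turn, the counts ranged from 1 to 2 for Dex in GRwt/wt of run 1, from 2 to 4 in run 2, from 1 to 2 for vehicle in GRL/L and GRD/D, from 5 to 7 in GRko/ko, and from 2 to 3 for the difference of GRko/ko. Cd55 with Dex in GRko/ko (-0.0401 to 0.151) and the Masp1 difference of GRL/L (-0.00521 to 0.108) changed sign in that range without a call. With the minimum of 10 counts in every library, C3 and C4b were not tested.

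The replicate block, tried because the numbers of vehicle and Dex libraries match, changed no call of a member: in the 2 runs of GRwt/wt, Cd55 was -0.52 and -0.36 and Masp1 0.25 and 0.72 under the paired fit. The labels do not say that a number marks one culture, same-numbered deviations correlated at -0.08 to 0.12, and 7 of 18 pairs correlated best with their own number.

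Of 133 counts of called genes over all genes, 17 moved by over 1.5 times under an alternative. For Dex in GRwt/wt, the run term gave 5207 for both runs fitted together, against 2159 in run 1 and 4901 in run 2, so that more libraries entered it. With only the libraries compared, the Dex count went from 1838 to 704 in GRD/D and from 774 to 1507 in GRD+L/D+L. In GRko/ko it went from 0 to 110 without the filter and to 1 with DESeq2. For the differences from GRwt/wt, the run term moved GRL/L from 286 to 115, GRD/D from 509 to 1105, GRD+L/D+L from 501 to 1227 and GRko/ko from 1314 to 2310, and only the libraries compared moved GRD+L/D+L from 501 to 869. The 12 genes of GRD+L/D+L minus GRD/D became 0 with DESeq2's size factors, without GRko/ko or with the run term, 2 with the replicate block, 7 with only the libraries compared, 58 with DESeq2 and 87 without the filter. Leaving out 1 library moved the count in GRD/D from 1838 to 1139 with Dex (without Dex replicate 2) and from 1479 to 933 with vehicle (without GRwt/wt vehicle replicate 3), the difference of GRL/L from 286 to 190 (without GRwt/wt vehicle replicate 5), GRD+L/D+L minus GRD/D to 0 to 21 and Dex in GRko/ko to 0 to 6. Depth limits C4b, C3 and Cfb in run 1.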

Other observations

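Cfd, the gene of factor D, a protease of the alternative pathway, had 0 counts in all 24 libraries of run 1. In run 2 it averaged 7.72 CPM in vehicle-treated GRwt/wt and 1.96 CPM in GRL/L (log2 -1.97, adjusted p = 4.57e-07), and the GRwt/wt level of run 2 was at least 117-fold higher than the level that 3 counts over the group would give in run 1. The adipocyte markers, whose sum averaged 30.2 CPM in GRwt/wt and 14.5 CPM in GRL/L of run 2 against 4.09 CPM in GRwt/wt of run 1, moved with it, and their part was not tested.

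The near-copies of the 2 classical proteases went the other way from them in GRko/ko. C1s2 had 1 count over the 3 vehicle libraries of GRko/ko against 33 in GRwt/wt of run 1, a ratio of GRwt/wt to GRko/ko of 36.7 after scaling to library size (exact 95% interval 6.14 to 1491, edgeR adjusted p = 1.76e-07). C1rb had 1 count against 15, a ratio of 16.7 (2.56 to 702, adjusted p = 0.00679). These intervals cover counting error only. C1s1 and C1ra were higher in GRko/ko. C1s2 shares 21.8% of the 50-base stretches of C1s1, and C1rb 48% of those of C1ra. The strain of GRko/ko is given differently by the labels and the methods, and its part in these counts was not tested.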
